A study of Citrus sinensis with 6 samples.

Results

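The plant hormone signal transduction genes of sweet orange were examined in leaves grown with sufficient and with deficient boron. The members are the 276 genes, of 29875 in the expression table, that its KEGG annotation (a collection of curated pathways) places in the plant hormone signal transduction pathway. Hormones were told apart by the Gene Ontology (GO) process terms for the response to auxin, cytokinin, abscisic acid, ethylene, jasmonate, gibberellin and brassinosteroid, with salicylic acid added beside these 7. The choice rested on annotations alone, but it was made with earlier results of these data known. Leaf RNA was sequenced in 6 libraries of tissue-cultured sweet orange (Citrus sinensis) of the Bingtang variety on day 25, 3 from the control group (CK) and 3 from the boron-deficient group (T). CK was grown with 0.25 mg/L and T with 0.01 mg/L, given as boric acid in the study's methods and as boron in the series design, while the treatment entry of the labels reads 0.01 mg/L for all 6 libraries. The library titles speak of leaf blades in the CK group but of leaf in the T group, so boron supply and the part of the leaf taken cannot be told apart. The design calls the 3 libraries of a group biological replicates without saying whether they came from separate plants, and p-values here measure the spread between these libraries.

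Plant hormones are read by receptors whose signal ends at transcription factors in the nucleus. In the auxin, jasmonate and gibberellin branches the hormone lets a ubiquitin ligase remove a repressor protein from those factors, and in the cytokinin branch a receptor histidine kinase passes a phosphate through histidine phosphotransfer proteins to response regulators. Abscisic acid receptors block protein phosphatases and so free a kinase, ethylene receptors are switched off when ethylene binds, and brassinosteroid is read by a receptor kinase at the cell surface. Boron cross-links a pectin of the plant cell wall, and its shortage is known to stop the growth of young tissue.

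Expression was given as FPKM, fragments scaled to a gene length of 1000 bases and to the total of reads in genes. This puts genes and libraries on a common scale but does not correct for differences in composition between libraries. The reads in genes, recovered from the FPKM steps, were 17689285 to 24026222 per library, so that 1 read in a gene of 1000 bases was worth 0.0415 to 0.0563 FPKM. The log2(FPKM + 1) values of T and CK were compared by limma. The 16421 genes that reached 1 FPKM in 3 or more libraries were tested, and fold changes on this scale understate the change of low genes. The 54 tested genes of the photosynthesis lists, used as leaf markers, included 47 with a lower estimate in T, and their 67 listed members summed to 31490 to 39280 FPKM in CK and to 22470, 36660 and 23140 FPKM in T1, T2 and T3. In all libraries 9 members of that list were at 0. Vascular genes (85 listed, 5 at 0 in all libraries) summed to 2395 to 2678 FPKM in 5 libraries and to 3892 FPKM in T3. Genes of cell division (159 listed, 9 at 0) spanned 4226 to 5234 FPKM, with T3 highest, and genes of root development (392 listed, 39 at 0) spanned 8893 to 9859 FPKM. The part of these differences in the results below was not tested. In leaf tissue as a whole, fewer cells of a type and less RNA per cell cannot be told apart.

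As many pathway genes had higher as lower estimates in T, to within 4 genes, and the share of its genes that met each threshold was near that of the whole table. Of the 276 members, 184 passed the filter and were tested, 92 did not, and 40 of those 92 were at 0 in every library. The estimate was higher in T for 90 and lower for 94 tested members, with a median log2 fold change of -0.02, beside 8733 higher, 7688 lower and a median of 0.02 over all tested genes. No member passed an adjusted p under 0.05 by limma, where 1 of the 16421 genes did (0.00609%), and limma on the recovered reads (voom) also called no member. An unadjusted p under 0.05 was reached by 10 members, or 5.43%, beside 4.78% of all tested genes. The criterion of the study's methods, a 2-fold or larger difference and an unadjusted p not above 0.05, was met by 2 members higher in T (1.09%, beside 1.27% of all tested genes) and 2 lower in T (1.09%, beside 1.08%). The study applied these thresholds to DESeq results. Here they were applied to the limma estimates on log2(FPKM + 1), so these counts are not the study's own. For this pathway the paper reports as many differentially expressed genes as the annotation lists members in all. In the values used here, 40 members were at 0 in every library and could show no difference. The authors' calls were not used, so the reason for this mismatch was not examined. The groups did not overlap for 7 members higher in T (3.8%, beside 4.46%) and 8 lower (4.35%, beside 3.71%). Each of these shares was close to that of the table as a whole. Log2 fold changes of members ran from -1.37 to 2.02, and their median within-group SD on the log2 scale was 0.42, beside 0.31 over all tested genes.

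By hormone, 7 lists had medians near 0 or with a sign that turned when single libraries were left out, and salicylic acid, with 5 genes, had the median farthest from 0. Auxin, with 47 members of which 33 were tested, had 18 higher and 15 lower estimates and a median log2 fold change of 0.04. Cytokinin had 24 members, 21 tested, with 12 higher, 9 lower and a median of 0.04, and ethylene had 21 members, 18 tested, with 10 higher, 8 lower and a median of 0.04. In the abscisic acid list 22 of 27 members were tested, 8 higher and 14 lower, with a median of -0.06. Jasmonate had 11 of 12 members tested, 6 higher and 5 lower, with a median of 0.15. All 8 gibberellin members were tested, 5 higher and 3 lower, with a median of 0.05, and 8 of 9 brassinosteroid members were tested, 2 higher and 6 lower, with a median of -0.08. The 5 salicylic acid members, all tested, all had lower estimates, with a median of -0.48. The lists share genes, since 20 members carry more than 1 of the 7 terms, while 155 carry none of them and 98 have no GO process at all. The 43 tested genes without a GO process had 18 higher and 25 lower estimates and a median of -0.15. Leaving out single libraries moved these medians. Without CK3 the median was 0.26 for auxin, 0.26 for cytokinin, 0.07 for abscisic acid, -0.07 for jasmonate and -0.20 for salicylic acid, and without CK1 it was -0.09 for auxin, -0.12 for cytokinin, -0.23 for brassinosteroid and -0.66 for salicylic acid. The jasmonate median was also below 0 without T1 (-0.02) and was 0.00 with array weights. Salicylic acid stayed below 0 under every alternative, from -0.66 to -0.20, and was the one list of the 8 to do so beside brassinosteroid, from -0.23 to -0.01.

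**Figure D1:**
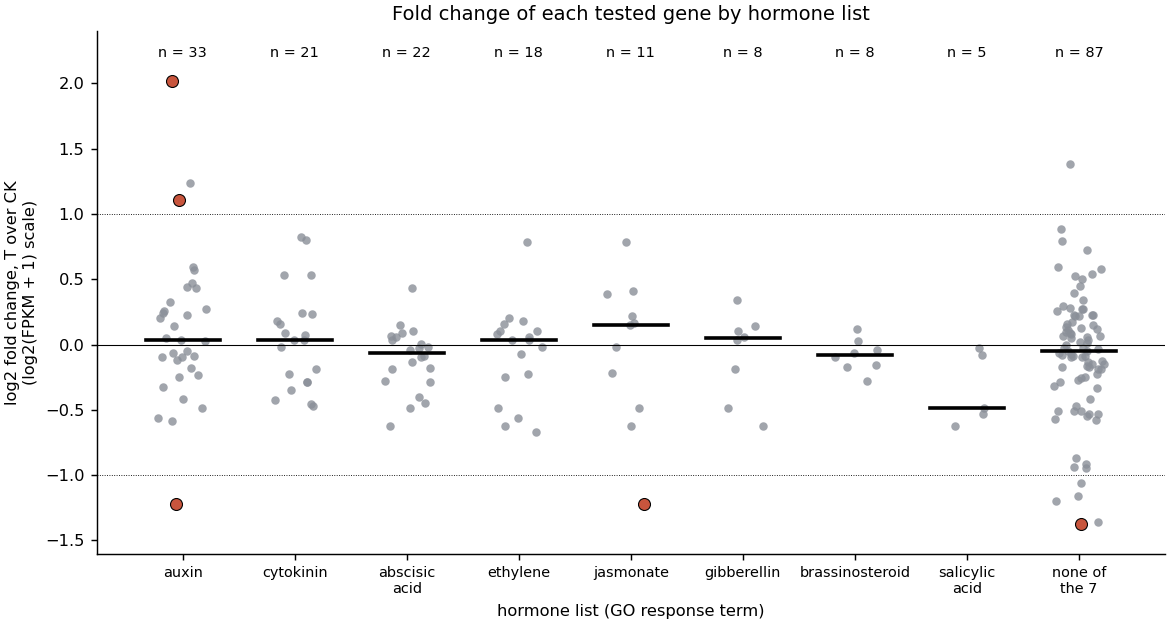
Log2 fold change (T over CK, log2(FPKM + 1) scale) of each tested hormone signal transduction gene, by hormone list. Points are genes, with a gene shown in every list that holds it, bars are list medians, dotted lines mark a fold change of 2, and red points met the criterion of fold and unadjusted p. Medians lie between -0.48 (salicylic acid, 5 genes) and 0.15 (jasmonate, 11 genes), and the red points are 3 genes of the auxin list, of which 1 is also shown under jasmonate, and 1 gene outside the 7 lists.

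Among receptors, the clearest separation was that of a cytokinin receptor, the only tested receptor whose groups did not overlap. Over all tested genes 4.46% were higher and 3.71% lower in T without overlap, so a single such receptor does not set the receptors apart. Cs_ont_2g014090, annotated as a transmembrane receptor histidine kinase with cytokinin receptor activity, stood at 6.80, 7.65 and 6.95 FPKM in CK1 to CK3 and at 14.2, 11.6 and 14.4 FPKM in T1 to T3. The 3 CK libraries lay close together, and every T library was above them. Its mean was 7.14 ± 0.45 FPKM in CK and 13.4 ± 1.55 FPKM in T (SD, n = 3 each), 1.88 times as high. The log2 fold change was 0.82 (SE 0.16, limma, adjusted p = 0.537, with the smallest unadjusted p of the pathway), and over all alternatives it stayed between 0.77 and 0.91. The fold stayed under 2 on the log2(FPKM + 1) scale, so the gene did not meet the criterion. The other cytokinin receptors, Cs_ont_7g021960 and Cs_ont_2g017440, had log2 fold changes of -0.29 and 0.09. Cs_ont_7g021960, the most abundant of the 3, had 30.6, 37.8 and 51.9 FPKM in CK and 28.9, 30.8 and 36.4 FPKM in T, so the groups overlapped.

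The 4 ethylene receptors all had higher estimates in T, with log2 fold changes of 0.04 to 0.59, and all overlapped between groups. The most abundant, Cs_ont_5g007730, had 46.2, 42.4 and 30.9 FPKM in CK and 42.6, 33.6 and 56.0 FPKM in T, and its sign turned when CK3 or T3 was left out. Cs_ont_9g007600, with the largest estimate of the 4, had 14.8, 17.5 and 3.98 FPKM in CK and 15.0, 18.6 and 14.9 FPKM in T, and CK3 alone lay outside the range of 14.8 to 18.6 FPKM. Both gibberellin receptors also had higher estimates within overlapping groups. Cs_ont_3g016840 had 42.0, 29.6 and 52.1 FPKM in CK and 48.0, 32.3 and 56.1 FPKM in T, with a log2 fold change of 0.14. Cs_ont_5g009330 had 27.7, 12.3 and 28.9 FPKM in CK and 30.8, 22.7 and 29.9 FPKM in T, with a log2 fold change of 0.34. In both genes the CK2 and T2 libraries held the lowest value of their group.

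Of 6 genes annotated to abscisic acid binding, the activity of the abscisic acid receptors, 5 were tested, 2 with higher and 3 with lower estimates. Cs_ont_5g049350 had 57.4, 46.5 and 70.2 FPKM in CK and 57.5, 43.3 and 62.4 FPKM in T, a log2 fold change of -0.09. Cs_ont_7g010910 had 62.5, 28.9 and 40.03 FPKM in CK and 61.5, 46.9 and 62.7 FPKM in T, with the largest estimate of the 5, 0.43. CK1 stood among the T libraries in the latter gene, and CK2 and CK3 lay below all 3. Of 7 genes with auxin receptor activity, 4 were at 0 in every library. The most abundant of the other 3, Cs_ont_5g008980, had 16.0, 18.0 and 34.2 FPKM in CK and 15.9, 23.9 and 22.9 FPKM in T. Its log2 fold change was -0.06, and the sign turned without CK3, the highest library, or without T1.

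**Figure D2:**
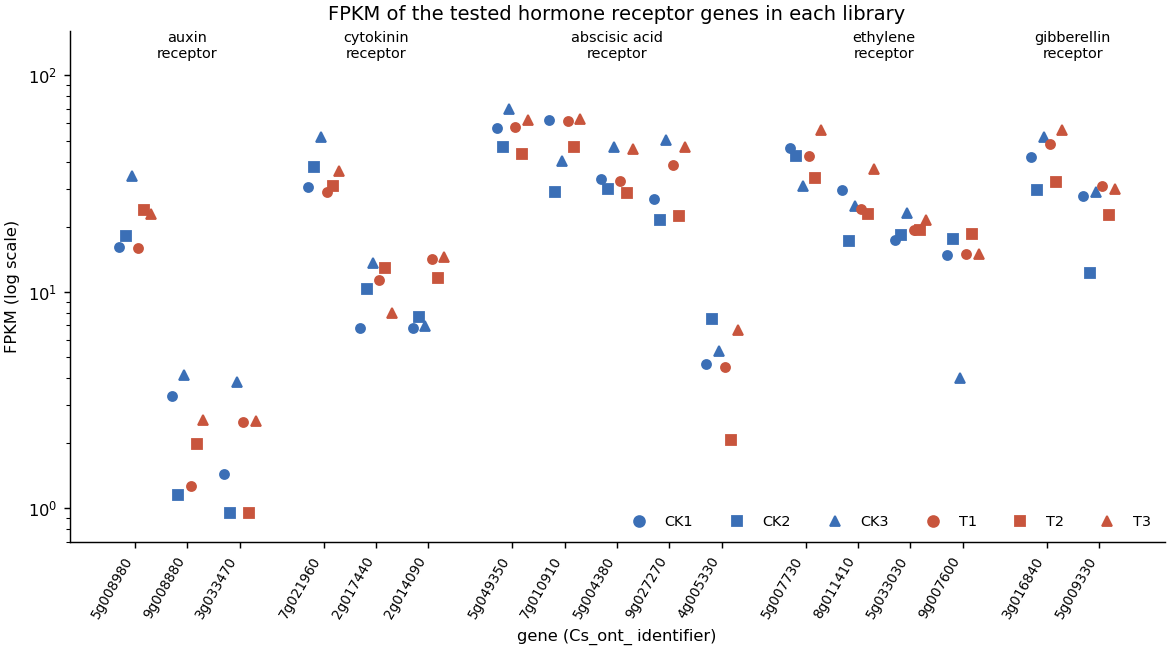
FPKM (log scale) of the 17 tested hormone receptor genes in each of the 6 libraries, grouped by hormone and ordered by mean FPKM. Blue symbols are CK and red symbols T, with the shape giving the library number. The T symbols stand above all CK symbols for Cs_ont_2g014090 (11.6 to 14.4 against 6.80 to 7.65 FPKM), and the groups overlap for the other 16 receptors. Over all tested genes, 4.46% were higher in T without overlap.

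Downstream of the cytokinin receptors, 3 histidine phosphotransfer and 13 response regulator genes were tested, and these phosphorelay genes overlapped between groups with 1 exception. Over all tested genes 4.46% were higher and 3.71% lower in T without overlap, so 1 exception does not set these genes apart. The most abundant histidine phosphotransfer gene, Cs_ont_5g009380, had 22.2, 18.8 and 27.8 FPKM in CK and 25.9, 29.7 and 25.5 FPKM in T (log2 fold change 0.24). Of 14 response regulators, the end points of the relay, 13 were tested, 7 higher and 6 lower, with log2 fold changes of -0.47 to 0.80. The exception was Cs_ont_4g028050, which had 1.778, 1.90 and 2.46 FPKM in CK and 0.866, 1.08 and 1.777 FPKM in T, where the highest T library lay just under the lowest CK library. Its log2 fold change was -0.46 (SE 0.26, limma, adjusted p = 0.999). Cs_ont_9g015160 had 7.10, 6.61 and 6.82 FPKM in CK and 6.90, 10.9 and 14.5 FPKM in T, with T2 and T3 above CK and T1 within it. The 2 most abundant regulators, both also in the ethylene list, differed little. Cs_ont_9g001940 had 48.2, 49.4 and 72.6 FPKM in CK and 49.2, 36.9 and 58.6 FPKM in T, a log2 fold change of -0.23. Cs_ont_2g013750 had 29.9, 41.6 and 43.0 FPKM in CK and 38.3, 59.0 and 33.2 FPKM in T, a log2 fold change of 0.16 whose sign turned without CK1 or T2.

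Protein kinases were the steadiest group. All 17 were tested, 8 higher and 9 lower, with log2 fold changes between -0.45 and 0.13 and a median within-group SD of 0.20 on the log2 scale. Cs_ont_2g026330, the most abundant, ran from 79.1 to 106.1 FPKM in CK and from 81.2 to 119.4 FPKM in T. The abscisic acid list's most abundant kinase, Cs_ont_8g023720, had 55.2, 55.1 and 69.5 FPKM in CK and 58.5, 52.5 and 69.4 FPKM in T, and its log2 fold change was 0.00. In the brassinosteroid list, 6 of the 8 tested members had lower estimates, of at most 0.28 in size. Its kinase Cs_ont_2g003550, also in the auxin list, had 57.2, 82.3 and 80.3 FPKM in CK and 71.9, 68.4 and 63.2 FPKM in T. Cs_ont_5g003030 (log2 fold change -0.16) and Cs_ont_8g028790 (-0.28) are further kinases of that list, and the latter had 3.06, 4.004 and 4.10 FPKM in CK and 3.07, 2.62 and 2.91 FPKM in T. The list's most abundant transcription factor, Cs_ont_3g004040, stood at 30.3 to 38.7 FPKM in CK and 36.4 to 40.3 FPKM in T. Cs_ont_1g025460, a kinase of the abscisic acid and gibberellin lists, kept to 39.5 to 47.5 FPKM over all 6 libraries.

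The 3 tested protein phosphatases all had lower estimates, and the most extreme rested on CK3. In the abscisic acid branch such phosphatases hold the kinases inactive until the hormone is bound. Cs_ont_9g027570, a serine/threonine phosphatase without any of the hormone terms, had 0.154, 3.94 and 21.9 FPKM in CK and 0.913, 1.88 and 0.416 FPKM in T, or 2 to 359 reads per library. Its log2 fold change of -1.36 had an SE of 1.02 and ran from -2.42 without CK1, where it met the criterion, to -0.27 without CK3. Cs_ont_4g023710, the most abundant of the 3, also has none of the hormone terms. It had 19.9, 48.5 and 53.8 FPKM in CK and 20.4, 31.5 and 27.2 FPKM in T. Its log2 fold change was -0.51 within overlapping groups. Cs_ont_4g011390, the tested phosphatase of the abscisic acid list, was nearly level, with a log2 fold change of -0.03. It had 9.75, 6.38 and 10.35 FPKM in CK and 7.62, 7.63 and 10.39 FPKM in T.

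The 5 transcription corepressors, the activity by which repressors of the jasmonate branch silence their targets, had 4 higher estimates and 1 lower, and varied widely between libraries (median within-group SD 0.78). The most abundant was also the most even. Cs_ont_2g013370, of the jasmonate list, had 106.5, 115.7 and 109.1 FPKM in CK and 135.8, 127.5 and 122.1 FPKM in T, so that every T library was above every CK library. The difference was small, with a log2 fold change of 0.22 (SE 0.15, limma, adjusted p = 0.999, exact permutation p = 0.1, the smallest that 3 against 3 allows). Every member whose groups did not overlap had this same permutation p. Cs_ont_4g022240, also of the jasmonate list, had 85.1, 142.2 and 31 FPKM in CK and 87.3, 79.3 and 77.5 FPKM in T, with the highest and the lowest value both in CK. Cs_ont_1g019000 showed the same order in CK, with 54.1, 97.6 and 8.32 FPKM, against 55.6, 37.0 and 41.3 FPKM in T. In both of these genes the log2 estimate was higher in T (0.17 and 0.28) although the mean FPKM was higher in CK, since the log scale gives the low CK3 value more weight. In 3 of the 5 corepressors CK3 was the lowest library.

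Auxin genes, 33 of the 184 tested members, held 3 of the 4 members that met the criterion. These were 2 higher and 1 lower in T, beside 1.27% and 1.08% of all tested genes. Counts this small cannot set the auxin list apart from the table as a whole. Cs_ont_4g002310, an auxin-list gene annotated to DNA-binding transcription factor activity, had 4.49, 2.99 and 1.08 FPKM in CK and 23.8, 8.04 and 12.5 FPKM in T. Every T library exceeded every CK library, and T1 was the highest in T as CK1 was in CK. The mean was 2.85 ± 1.71 FPKM in CK and 14.8 ± 8.12 FPKM in T (SD, n = 3 each), 5.19 times as high. Its log2 fold change of 2.02 (SE 0.49, limma, adjusted p = 0.636) was the largest of the pathway and met the criterion under every alternative run, where it ran from 1.63 to 2.47. The libraries held 29 to 472 reads of this gene.

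Cs_ont_1g024160 carries the indole-3-acetic acid amido synthetase term, the activity that joins auxin to amino acids and so takes free auxin out of use. It had 7.63, 5.32 and 5.05 FPKM in CK and 16.0, 18.6 and 8.84 FPKM in T. T3 was the lowest of T and lay only slightly above CK1. The mean was 6.001 ± 1.42 FPKM in CK and 14.5 ± 5.07 FPKM in T (SD, n = 3 each), and the log2 fold change was 1.11 (SE 0.30, limma, adjusted p = 0.782). Without T2 the log2 fold change was 0.91 and the criterion was not met. A second tested gene with the same activity, Cs_ont_4g016390, went the other way, with 4.35, 6.17 and 4.14 FPKM in CK and 1.86, 4.91 and 2.45 FPKM in T (log2 fold change -0.59, SE 0.32, limma, adjusted p = 0.999). The third, Cs_ont_3g024460, was too low to be tested.

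Cs_ont_9g006910 was the abundant gene with the clearest lower value in T. It is a transcription factor of the auxin and jasmonate lists, with 48.9, 86.6 and 118.5 FPKM in CK and 29.5, 41.5 and 31.1 FPKM in T. The T libraries lay close together below all of CK, while the CK libraries spread more than 2-fold. Its mean was 84.7 ± 34.9 FPKM in CK and 34.0 ± 6.56 FPKM in T (SD, n = 3 each), 2.49 times as high in CK. The log2 fold change was -1.22 (SE 0.34, limma, adjusted p = 0.783), and without CK3 it was -0.93 and the criterion was not met. Other transcription factors of the auxin list overlapped between groups. Cs_ont_3g019530, the most abundant member of the pathway, had 138.1, 155.1 and 150.2 FPKM in CK and 129.9, 102.7 and 144.2 FPKM in T (log2 fold change -0.25). Cs_ont_9g006880, a near neighbour of Cs_ont_9g006910 in the table, had 125.1, 52.9 and 54.4 FPKM in CK and 160.1, 71.1 and 111.4 FPKM in T (log2 fold change 0.60), with CK1 above T2 and T3, and met the criterion without CK1. Cs_ont_4g005740 had the second largest estimate of the auxin list, 1.24, from 45.3, 21.3 and 6.49 FPKM in CK and 93.0, 31.4 and 32.3 FPKM in T. As in Cs_ont_4g002310, the order within each group put CK1 and T1 highest and CK3 lowest, but here CK1 exceeded T2 and T3. The gene met the criterion without CK1 (1.85) and with array weights (1.76). Over the 20 tested transcription factors of the auxin list, 10 estimates were higher and 10 lower.

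**Figure D3:**
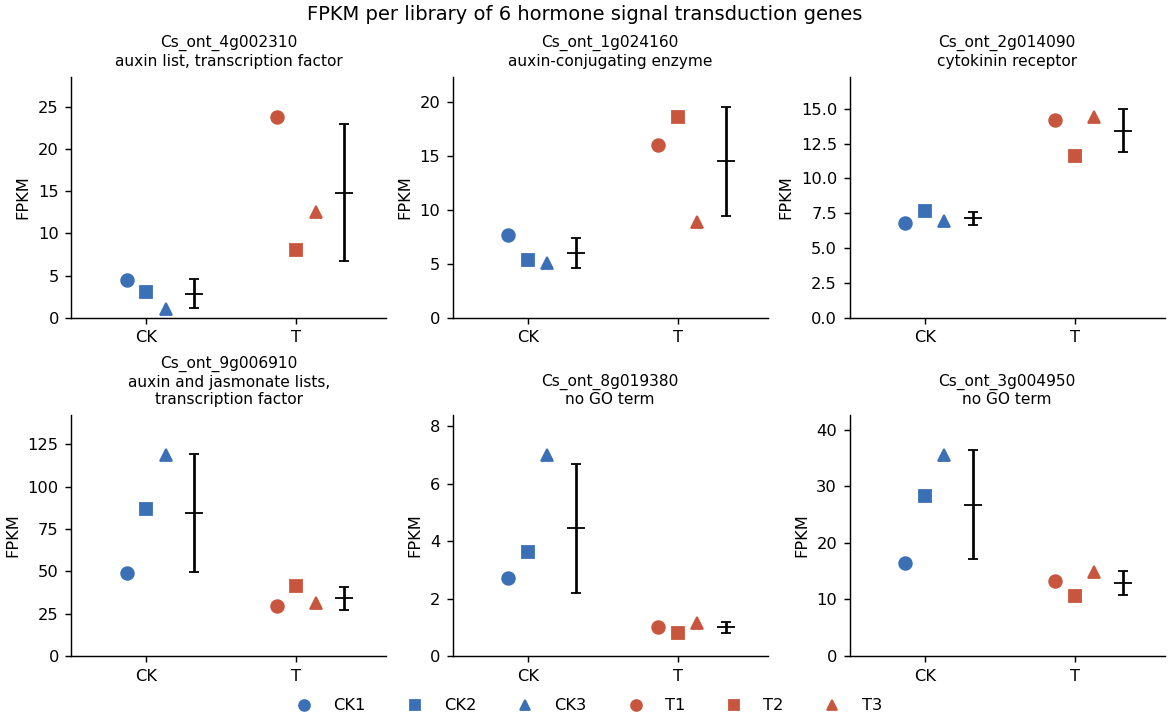
FPKM per library of 6 hormone signal transduction genes, 3 higher in T (top) and 3 lower in T (bottom), with each axis starting at 0. Symbols are single libraries (blue CK, red T), and black bars are the mean ± SD of 3 libraries. In all 6 genes the libraries of the 2 groups do not overlap, from 1.08 to 4.49 against 8.04 to 23.8 FPKM in Cs_ont_4g002310 to 16.5 to 35.5 against 10.7 to 14.9 FPKM in Cs_ont_3g004950.

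Apart from Cs_ont_9g006910, no transcription factor of the other hormone lists met the criterion. Of the 53 transcription factors of the pathway 45 were tested, 19 higher and 26 lower, with a median log2 fold change of -0.05. In the ethylene list the most abundant factors were Cs_ont_3g022800, with 127.0, 108.1 and 107.5 FPKM in CK and 114.2, 101.3 and 159.3 FPKM in T, and Cs_ont_2g030110, with a log2 fold change of -0.25. Cs_ont_9g008010, in the ethylene and jasmonate lists, had 21.3, 9.80 and 12.0 FPKM in CK and 23.3, 13.2 and 45.9 FPKM in T, a log2 fold change of 0.79 with T3 highest, and it met the criterion without T2 (1.204). Cs_ont_5g011900 (ethylene) had the lowest estimate of its list, -0.67, and its CK2 value of 10.7 FPKM stood over the 2.21 to 4.31 FPKM of the other 5 libraries. Cs_ont_4g022370, shared by auxin and ethylene, had 17.8, 35.0 and 37.3 FPKM in CK and 14.3, 26.0 and 18.5 FPKM in T (log2 fold change -0.56). For jasmonate, the most abundant factor was Cs_ont_7g010850, with 113.8, 141.6 and 69.8 FPKM in CK and 108.2, 133.1 and 107.8 FPKM in T. The most abundant factor of the abscisic acid list, Cs_ont_3g005140, had 74.7, 84.7 and 82.6 FPKM in CK and 66.1, 67.3 and 78.9 FPKM in T (log2 fold change -0.19), where T3 lay inside the CK range. An mRNA-binding gene of the ethylene list, Cs_ont_6g020590, was level at 28.5 to 37.3 FPKM in all 6 libraries.

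A pair of transcription factors carried the abscisic acid, ethylene, jasmonate, gibberellin and salicylic acid terms together, and so weighed on several lists. Cs_ont_6g005150 had 25.6, 23.7 and 61.0 FPKM in CK and 15.7, 20.6 and 29.7 FPKM in T (log2 fold change -0.63). Cs_ont_2g013070 had 29.9, 49.5 and 65.9 FPKM in CK and 24.8, 44.3 and 31.7 FPKM in T (log2 fold change -0.48). Both were highest in CK3 and lowest in T1, and both overlapped between groups. With Cs_ont_4g011050 they made up the 3 most negative estimates of the salicylic acid list. Cs_ont_4g011050 has no molecular function term and had 4.39, 5.88 and 6.06 FPKM in CK and 3.10, 3.85 and 3.34 FPKM in T, without overlap (log2 fold change -0.53, SE 0.20, limma, adjusted p = 0.981). The sum over the salicylic acid list was 85.4, 103.0 and 165.2 FPKM in CK and 67.5, 92.1 and 94.4 FPKM in T. Without a hormone term, the transcription factor Cs_ont_7g014320 was also lower in T without overlap, with 33.0, 42.0 and 36.0 FPKM in CK and 21.1, 29.1 and 29.8 FPKM in T (log2 fold change -0.47, SE 0.19, limma, adjusted p = 0.999).

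Genes with no GO annotation at all supplied the remaining member that met the criterion and several with an unadjusted p under 0.05. Cs_ont_8g019380 had 2.73, 3.63 and 6.998 FPKM in CK and 1.03, 0.806 and 1.17 FPKM in T, or 14 to 129 reads. All T libraries were below all CK libraries, and CK3 was the highest. Its mean was 4.45 ± 2.25 FPKM in CK and 1.003 ± 0.18 FPKM in T (SD, n = 3 each), 4.44 times as high in CK. The log2 fold change was -1.37 (SE 0.33, limma, adjusted p = 0.636), the most negative of the pathway. Cs_ont_3g004950 had 16.5, 28.2 and 35.5 FPKM in CK and 13.3, 10.7 and 14.9 FPKM in T. Its means were 2.06 times apart, but its log2 fold change of -0.94 (SE 0.30, limma, adjusted p = 0.88) fell short of a fold of 2 on the log2(FPKM + 1) scale, which it passed without CK1 (-1.24) or T3 (-1.04). Cs_ont_7g025310 was higher in T, with 7.60, 5.79 and 4.39 FPKM in CK and 12.4, 10.5 and 8.18 FPKM in T (log2 fold change 0.72, SE 0.25, limma, adjusted p = 0.921). Cs_ont_7g012810 had 0.805, 0.793 and 0.462 FPKM in CK and 2.27, 1.66 and 1.86 FPKM in T, from 13 to 47 reads. Its means were 2.81 times apart, and its log2 fold change of 0.80 became 1.39 with a pseudocount of 0.1 in place of 1, which met the criterion.

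Large estimates also came from genes whose libraries disagreed within a group. Cs_ont_6g021130, without GO terms, had 6.22, 6.82 and 3.37 FPKM in CK and 35.8, 34.8 and 2.30 FPKM in T. T1 and T2 stood far above CK and T3 below it, so the log2 fold change of 1.38 had an SE of 0.94, and without T3 it was 2.53 and met the criterion. Cs_ont_4g004780, annotated to histidine kinase binding, had 0.381, 4.39 and 2.88 FPKM in CK and 0.0822, 0.193 and 1.48 FPKM in T (log2 fold change -1.06, SE 0.59). CK1 lay below T3 here, and 2 reads stood behind the lowest value. The most abundant gene without a molecular function term, Cs_ont_6g013980, which is also in the mitogen-activated protein kinase (MAPK) pathway, had 135.9, 141.2 and 77.6 FPKM in CK and 125.2, 79.5 and 135.7 FPKM in T. Cs_ont_6g015250, the most abundant auxin influx carrier, ran from 46.3 to 88.5 FPKM in CK and from 46.1 to 91.4 FPKM in T. Of the 65 members shared with the MAPK pathway, 40 were tested, with 23 higher and 17 lower estimates, a median log2 fold change of 0.05 and no member at the criterion.

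Cs_ont_8g019380 lies in a run of 10 members on chromosome 8, as the identifiers number it, and its tested neighbours had the same sign. The run (Cs_ont_8g019260 to Cs_ont_8g019390, with at most 3 other genes between members) was picked out after its values were seen. Of its 10 members 4 were tested, all with lower estimates in T and a median log2 fold change of -1.18, and 2 were at 0 in all libraries. Without CK3 this median was -0.55, and with no filter on low values it was -0.57. Cs_ont_8g019330 had 6.65, 6.56 and 29.3 FPKM in CK and 3.59, 3.05 and 6.85 FPKM in T. Cs_ont_8g019320 had 3.78, 6.02 and 18.8 FPKM in CK and 2.34, 1.63 and 5.80 FPKM in T. In both, CK3 was at least 3 times any other library and T3 reached the level of CK1 or CK2, and their log2 fold changes were -1.20 (SE 0.59) and -1.16 (SE 0.60). The latter met the criterion without CK1 (-1.59) or T3 (-1.56), and both met it with array weights (-1.09 and -1.12). All 4 tested genes of the run were highest in CK3. Among the untested members, Cs_ont_8g019290 had 8, 4 and 5 reads in CK1 to CK3 and 0 in each T library, where a count of 0 allows up to 3 reads per library. Over the 10 genes the sum was 16.3, 20.1 and 59.2 FPKM in CK and 8.57, 7.18 and 15.4 FPKM in T. A second run just beyond it (Cs_ont_8g019470 to Cs_ont_8g019590, 7 members, 3 tested) had 1 higher and 2 lower estimates and again its highest sum, 37.3 FPKM, in CK3, beside 5.24 to 12.7 FPKM in the other libraries. Members of such runs may be near-identical copies. How the counting treated reads shared among copies was not examined, so single values in these runs are uncertain.

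**Figure D4:**
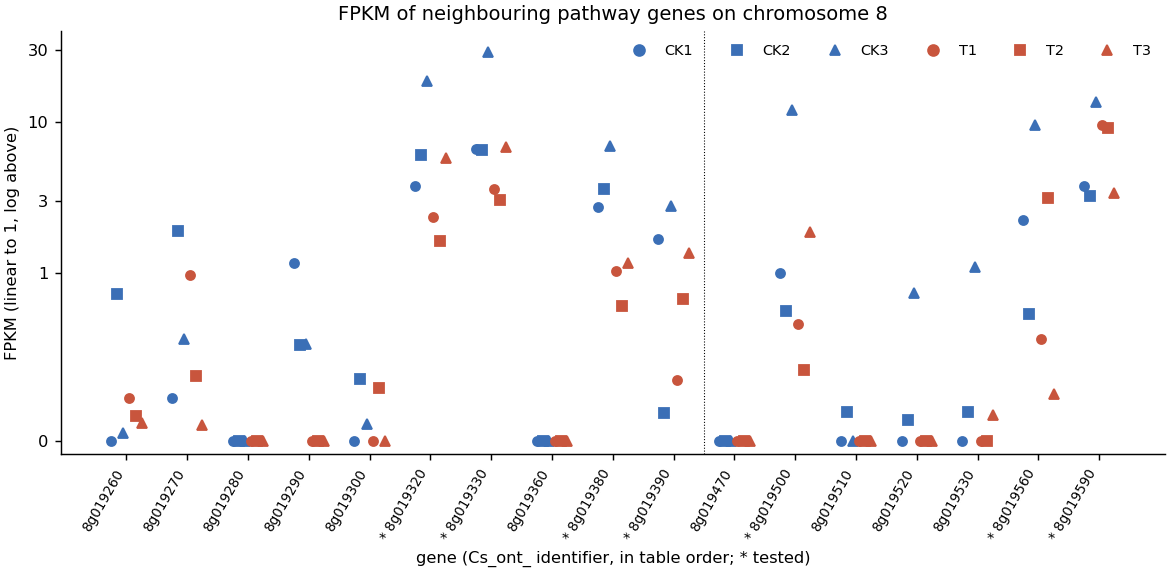
FPKM of the 17 members in 2 neighbouring runs on chromosome 8, in table order, with the vertical axis linear to 1 FPKM and logarithmic above. Blue symbols are CK, red symbols T, asterisks mark tested genes and the dotted line separates the runs of 10 and 7 members. CK3 is the highest library in all 7 tested genes, and among the tested genes only Cs_ont_8g019380 shows all T libraries (0.806 to 1.17 FPKM) below all CK libraries (2.73 to 6.998 FPKM).

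A longer run on chromosome 7 held 18 of the 20 genes annotated to salicylic acid binding, and these differed little. It had 18 members (Cs_ont_7g014370 to Cs_ont_7g014600), 12 of them tested, with 5 higher and 7 lower estimates and a median log2 fold change of -0.06. Its sum was 85.7, 76.9 and 94.4 FPKM in CK and 89.7, 75.9 and 92.0 FPKM in T. The most abundant, Cs_ont_7g014370, had 29.6, 22.5 and 26.9 FPKM in CK and 27.4, 24.6 and 34.2 FPKM in T. Only Cs_ont_7g014430 did not overlap, with 1.83, 2.254 and 2.254 FPKM in CK and 1.33, 1.74 and 1.45 FPKM in T, from a minimum of 27 reads. Its log2 fold change was -0.31 (SE 0.22, limma, adjusted p = 0.999). Among all tested genes 3.71% were lower in T without overlap, so a single such gene does not set the run apart. Outside the run, Cs_ont_2g009270 had 19.6, 15.3 and 16.4 FPKM in CK and 26.4, 19.5 and 22.8 FPKM in T, with T2 just below CK1 (log2 fold change 0.40, SE 0.18, limma, adjusted p = 0.999).

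Much of the variation of these genes lay between libraries of the same group. The groups accounted for 18.6% of the variance of the 184 tested members on the log2(FPKM + 1) scale, beside 22.6% over all tested genes. With 3 libraries per group, groups without any difference would also account for a share of about this size. CK3 was the highest library for 75 of the 184 members (40.8%), beside 28.4% of all tested genes, and CK1 for 5 (2.72%), beside 7.44%. CK3 was also the most deeply sequenced library, and the part of depth in this was not tested. The order of libraries crossed the groups in many genes. CK2, CK3 and T2 were the 3 highest libraries for 33 members (17.9%, beside 14.5% of all tested genes), and CK1, T1 and T3 for 15 (8.15%, beside 5.05%). Both photosynthesis and vascular sums differed among the T libraries, as given above.

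**Figure D5:**
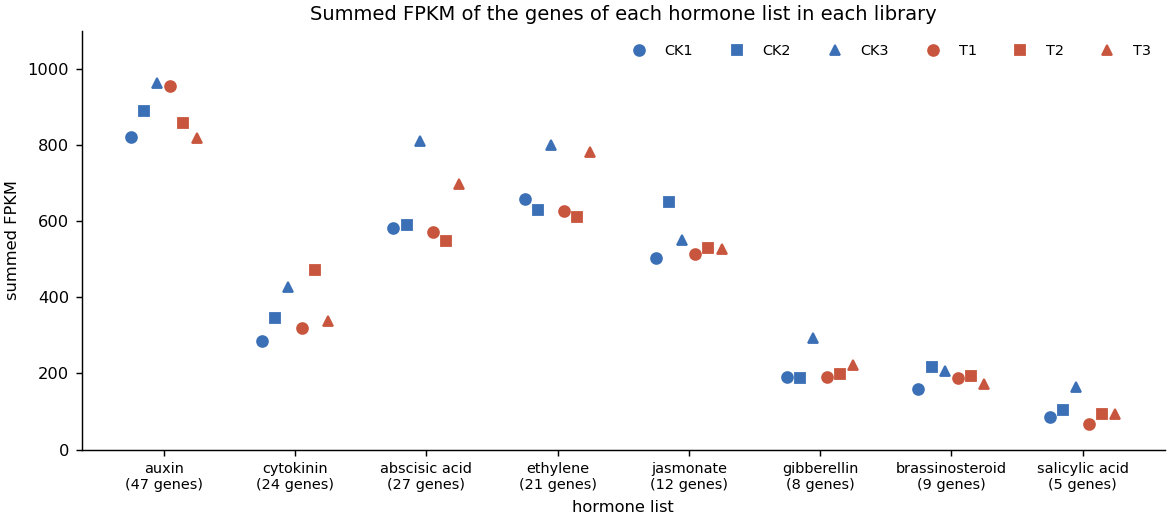
Summed FPKM of the genes of each hormone list in each library. Blue symbols are CK and red symbols T, with the shape giving the library number, and the number of genes in each list stands under its name. The groups overlap in every list, and CK3 is the highest library for auxin, abscisic acid, ethylene, gibberellin and salicylic acid.

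The sum over the cytokinin list was 285.1, 344.8 and 427.5 FPKM in CK and 320.2, 471.5 and 336.9 FPKM in T, and its high value in T2 came mainly from a pair of genes annotated to the mitotic cell cycle. Cs_ont_8g025140 had 2.70, 8.01 and 18.2 FPKM in CK and 5.91, 72.7 and 1.04 FPKM in T. Cs_ont_3g005550 had 11.0, 26.5 and 24.8 FPKM in CK and 13.0, 72.1 and 3.59 FPKM in T. Both were highest in T2 and lowest in T3, and the response regulator Cs_ont_3g009170 was also highest in T2, at 13.8 FPKM, beside 0.256 to 6.18 FPKM in the other libraries. These genes were chosen after their values were seen.

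The 92 members that could not be tested were listed at low values or at 0, with 2 exceptions in T2. A value of 0 is given as listed, since genes of the photosynthesis lists are also at 0 in every library. Both lie in another run on chromosome 8 (Cs_ont_8g026990 to Cs_ont_8g027120, 9 members, none tested, 5 at 0 in all libraries), annotated to the plant-pathogen interaction and MAPK pathways as well. Cs_ont_8g027120 had 15.8 FPKM in T2 and at most 0.795 FPKM elsewhere, and Cs_ont_8g027070 had 14.2 FPKM in T2 and at most 0.977 FPKM elsewhere. The whole run summed to 29.9 FPKM in T2 and to 0 to 1.77 FPKM in the other libraries. Since these values rest on 1 library, they say nothing of the groups.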

How the data were processed

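RNA sequencing of 6 leaf libraries (3 CK, 3 T) was analysed. The authors deposited 1 FPKM value for each gene in each library, made, per the paper's methods and the labels, by trimming with fastp, aligning with HISAT2 and counting with HTSeq. The paper names a sweet orange genome release for its gene family analysis without saying that the reads were aligned to it. For tool versions, the build of the alignment and the strand setting of the counting: not given in the sources used here. Further columns hold the authors' group averages, log2 fold changes, p-values and calls, which were not used, and 0 other columns of per-sample values were left out.

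Whole reads were recovered from the FPKM steps for 22740 genes, of which 99.99% had a gene length that came out whole within 0.001 base, and in 415 a common factor of the reads was put back. T was compared with CK by limma 3.58.1 (R 4.3.3; lmFit, eBayes with an intensity trend) on log2(FPKM + 1) in a two-sided test with 4 residual degrees of freedom. Genes that reached 1 FPKM in 3 or more libraries (16421) were tested, with Benjamini-Hochberg adjustment over all of them. The script was tested on simulated data. For named genes the mean FPKM was also compared by an exact two-sided permutation test (smallest possible p 0.1). The number of libraries, 3 per group, and the depth both limit precision. Tables and figures were made with Python 3.11.15, numpy 2.4.6, pandas 2.3.3 and matplotlib 3.10.9.

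Hormones were assigned by GO process identifiers, and roles by GO molecular function terms, which are annotations and not identities. The members, lists and tests were chosen with earlier results of these data known. Named genes are the members that met the criterion, the 3 with the smallest p and the 2 most abundant in each of the 7 lists, and the most abundant of each role. Other genes named, and the runs of neighbours (at least 5 members with at most 3 other genes between them), were chosen after their values were seen. Alternatives were pseudocounts of 0.1 and 0.01, an FPKM filter of 5 or none, a replicate block, array weights, upper quartile scaling, voom on recovered reads and leaving out each library. No sequences are shown, since no reference used here holds these gene identifiers.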

Additional observations from a re-analysis of the deposited data

How the results depend on the processing

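No member reached an adjusted p under 0.05 by limma under any of the 14 alternatives. The counts at the criterion (2 higher, 2 lower) were 3 and 2 with a pseudocount of 0.1 or 0.01 and with voom, 2 and 2 without a filter and with upper quartile scaling, 2 and 1 with a filter of 5, since Cs_ont_8g019380 was then not tested, and 4 and 7 with array weights. With a replicate block they were 3 and 4, as Cs_ont_4g005740, Cs_ont_8g019320 and Cs_ont_8g019330 were then included. Deviations of same-numbered libraries correlated at 0.28, 0.21 and -0.04. For CK1 and CK2 the same-numbered T library correlated best, while CK3 correlated best with T2 (0.17). With 3 libraries per group these values cannot decide whether the numbers pair the samples. Leaving out single libraries gave 2 to 5 higher and 2 to 7 lower, with 5 and 7 without CK1 and 5 and 4 without T3. The median log2 fold change of the members ran from -0.092 to 0.065 without single libraries, and was above 0 also with the filter of 5 (0.04) and with array weights (0.02). Cs_ont_1g024160 without T2 and Cs_ont_9g006910 without CK3 no longer met the criterion, and 22 of the 720 gene values met it under an alternative only. The list medians moved as given above, and the causes were not tested.

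Of the 52 genes whose estimates were run under the alternatives, 14 changed sign under some alternative, with main estimates of -0.17 to 0.34. Other genes named above, among them Cs_ont_1g019000, Cs_ont_4g022240 and Cs_ont_8g025140, were not run, so whether their signs hold was not tested. Array weights gave 0.044 for Cs_ont_5g049350 and -0.033 for Cs_ont_7g010850, and upper quartile scaling gave -0.021 for Cs_ont_8g023720. Without single libraries the log2 fold change spanned 0 in Cs_ont_2g013750 (-0.078 to 0.328), Cs_ont_2g026330 (-0.083 to 0.193), Cs_ont_3g016840 (-0.076 to 0.361), Cs_ont_3g022800 (-0.081 to 0.243), Cs_ont_5g007730 (-0.053 to 0.307), Cs_ont_5g008980 (-0.26 to 0.26), Cs_ont_5g009330 (-0.038 to 0.547), Cs_ont_5g049350 (-0.235 to 0.065), Cs_ont_6g013980 (-0.32 to 0.19), Cs_ont_6g015250 (-0.455 to 0.032), Cs_ont_6g020590 (-0.029 to 0.157), Cs_ont_7g010850 (-0.13 to 0.37), Cs_ont_7g014370 (-0.012 to 0.218) and Cs_ont_8g023720 (-0.10 to 0.11).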
